A study of Mus musculus with 19 samples.

Results

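Transcripts of the aminoacyl-tRNA synthetases, the enzymes that load amino acids onto tRNAs, were followed in 2 types of mouse spleen dendritic cell that lacked Xbp1, or Xbp1 and Ire1. The genes were taken by name from a list of 39, and all 39 were present among the 24421 gene symbols of the count tables. The list holds 20 cytosolic synthetases, 16 mitochondrial synthetases, whose symbols end in 2, and 3 scaffold proteins (Aimp1, Aimp2 and Eef1e1). All 39 passed the filter on low counts in both cell types.

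The libraries are bulk RNA sequencing of conventional dendritic cells type 1 (cDC1) and type 2 (cDC2), sorted from the spleens of C57BL6 mice, with between 5000 and 50000 cells taken per sort. WT was sequenced in 3 cDC1 and 4 cDC2 libraries, and the Xbp1 KO and the Xbp1-Ire1 KO in 3 libraries of each cell type, 19 in all. In both cell types, WT replicates 1 and 2 bear a library name with floxed alleles of both Xbp1 and Ire1. The names of replicate 3 of cDC1 and replicates 3 and 4 of cDC2 hold XBP1, IRE1 and WT, without the mark of floxed alleles. These are called WT-named, or named only WT, below, and which alleles they carry is not stated. The Cre driver of the deletions, the age and sex of the mice, the dates of the sorts and whether each library came from a separate mouse are not stated in the labels, so p-values measure only the spread between these libraries.

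Synthetases exist as separate sets for the cytosol and the mitochondrion, and nuclear genes encode both. Many cytosolic enzymes are bound in a multisynthetase complex held together by the scaffolds, and the Gars and Kars genes serve both compartments. IRE1 is a sensor of unfolded proteins in the endoplasmic reticulum that splices the Xbp1 mRNA, and in the neighbouring PERK branch, as in amino acid shortage, the transcription factor ATF4 is known to raise several cytosolic synthetase genes.

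Promoter sequences are shown first because a short motif was present in several of the cytosolic genes that rose in cDC1. RefSeq windows of 300 bases (250 before to 50 after each gene start, GRCm38.p6) were found for 29 of the 39 genes and searched on both strands for TGATGNAA, a core of the C/EBP-ATF response element to which ATF4 binds. Of the 12 cytosolic genes called higher in the cDC1 Xbp1-Ire1 KO, 8 had a window, and 5 of these 8 held the motif. Among genes with a window, it was in 0 of 4 cytosolic ones that were not called, 0 of 14 mitochondrial ones and 0 of 3 scaffold ones. A gene counts once even with several windows. Of all 32851 windows 3.97% held it, a share at which 0 is a likely count in groups this small, so the zeros show no contrast. The motif-bearing stretches are given below, 5′ to 3′ on the strand of the gene, with the match in capitals.
Iars, isoleucyl-tRNA synthetase, chr13:49682100-49682159, plus strand: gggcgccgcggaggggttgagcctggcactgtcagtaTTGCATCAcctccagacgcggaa
Aars, alanyl-tRNA synthetase, first match, chr8:111033704-111033763, plus strand: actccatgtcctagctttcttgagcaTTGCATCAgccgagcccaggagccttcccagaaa
Aars, further match, chr8:111033812-111033871, plus strand: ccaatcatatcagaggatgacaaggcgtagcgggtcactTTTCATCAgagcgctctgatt
Gars, glycyl-tRNA synthetase, chr6:55037945-55038004, plus strand: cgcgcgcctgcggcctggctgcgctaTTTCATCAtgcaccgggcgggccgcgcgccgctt
Tars, threonyl-tRNA synthetase, chr15:11399640-11399699, minus strand: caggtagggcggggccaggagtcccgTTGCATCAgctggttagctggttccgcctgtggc
Yars, tyrosyl-tRNA synthetase, chr4:129189873-129189932, plus strand: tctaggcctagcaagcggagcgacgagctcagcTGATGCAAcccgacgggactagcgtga
Asns, asparagine synthetase, shown for comparison as a known ATF4 target, chr6:7693199-7693258, minus strand: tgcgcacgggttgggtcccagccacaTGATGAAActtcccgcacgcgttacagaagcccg

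The match lay on the strand of the gene in Yars and Asns and on the other strand in Iars, Aars, Gars and Tars. Windows of Sars, Eprs and Dars, which were also called higher, held no match. The XBP1 element TGACGTGG was in 0 of the 29 genes with a window, against 0.676% of all windows, a share at which 0 is the likely count. CCACG, a part of the ER stress element, was in 17 of 29 (32.8% of all), and GAANNGAA, a part of interferon-stimulated elements, in 4 of 29 (20.1% of all). Every TGACGTGG also holds CCACG on the other strand, so these motifs overlap. These are matches of letters, and binding was not measured.

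Depth was about 10606900 to 16209500 counts per library. Xcr1, the chemokine receptor that marks cDC1, ranged from 813 to 1281 in cDC1 libraries and from 5.66 to 19.5 in cDC2 libraries, as CPM (counts per 1000000 of the library total, not scaled further), and Sirpa, a cDC2 surface marker, from 5.31 to 68.0 in cDC1 and from 1300 to 1701 in cDC2. One library stood apart: cDC1 Xbp1 KO replicate 3 had a summed 2128 CPM over 17 pancreatic acinar genes, against at most 9.85 in any other library. Counts of cytosolic genes called in the cDC1 comparisons that use it are also given without it. The values of single genes include it. Values below are CPM scaled by the trimmed mean of M-values (TMM). Tests are the quasi-likelihood F tests of edgeR, with p-values adjusted over all genes tested by the Benjamini-Hochberg method, and a gene is called at an adjusted p under 0.05.

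In cDC1 that lacked Xbp1, 11 of the 20 cytosolic synthetases were higher than in WT and 0 were lower, while 0 of 16 mitochondrial synthetases and 0 of 3 scaffolds were called. Over all 11353 genes tested, 4.28% were called higher, 6.91% lower and 11.2% in either direction. The median log2 fold change was 0.66 for the cytosolic enzymes and -0.081 for the mitochondrial ones, against -0.021 for all genes. In the Xbp1-Ire1 KO, 12 of 20 cytosolic enzymes and 1 of 16 mitochondrial ones were higher than WT, against 3.04% of all genes called higher, 4.71% lower and 7.75% in either direction. The medians there were 1.05 for cytosolic enzymes, 0.094 for mitochondrial ones and 0.0082 for all genes. In bulk libraries, fewer cells of a type and less RNA per cell cannot be told apart.

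**Figure D1:**
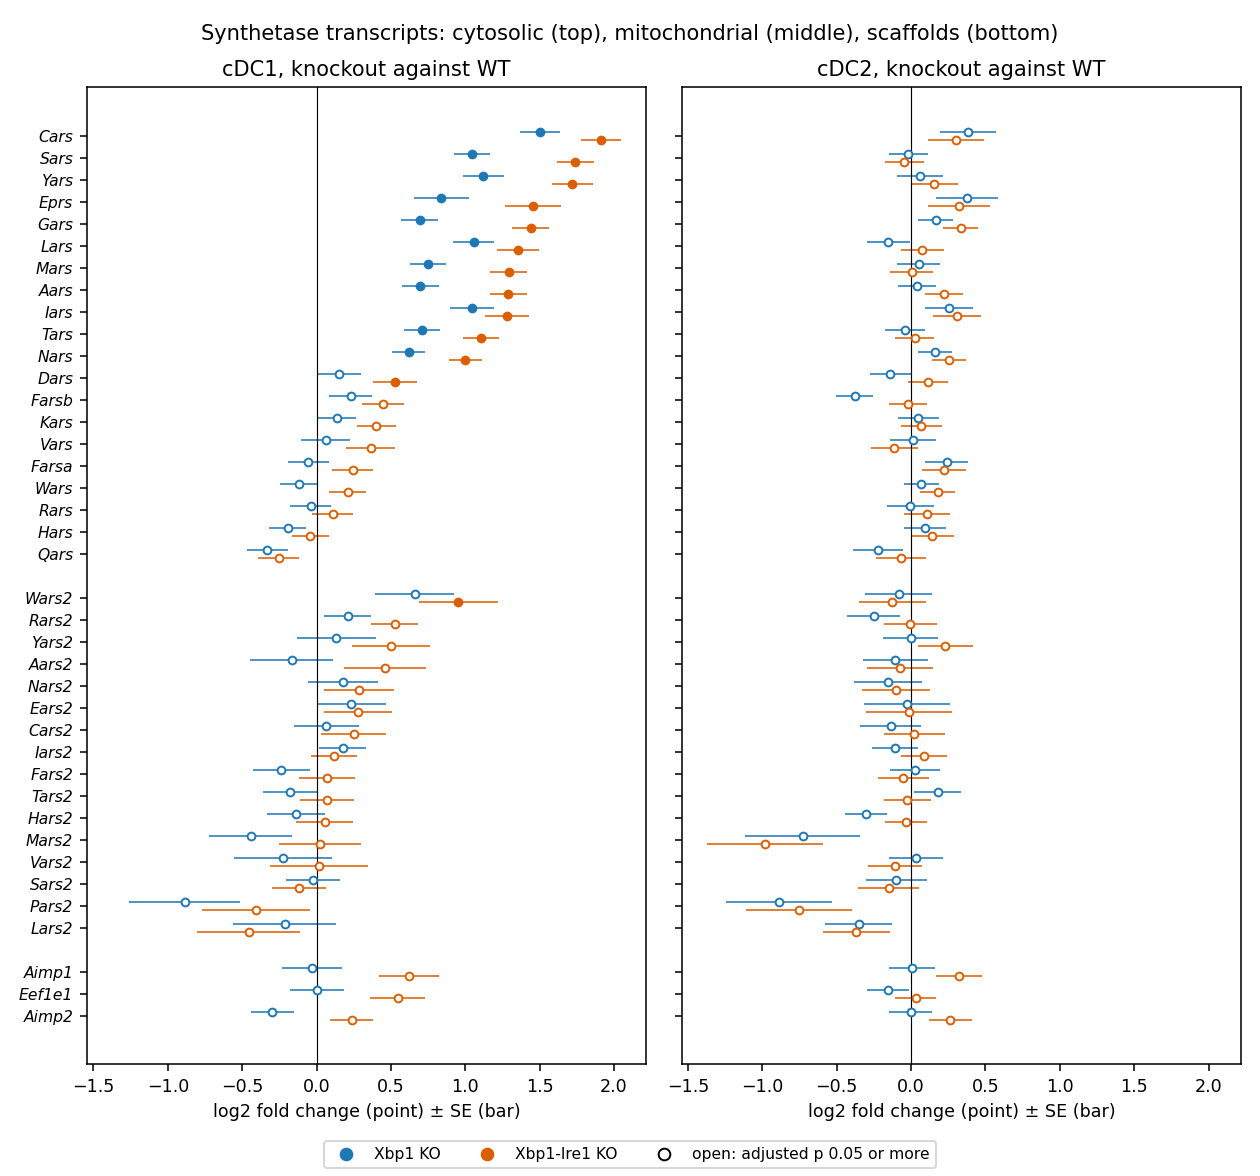
Log2 fold change (x axis, point) with its standard error (bar) of each of the 39 genes (y axis) in each knockout against WT, for cDC1 (left) and cDC2 (right). Filled points have an adjusted p under 0.05: in cDC1 they are 11 and 12 cytosolic genes and Wars2, and in cDC2 there are 0.

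The same 11 cytosolic genes were called in both knockouts of cDC1: Aars, Cars, Eprs, Gars, Iars, Lars, Mars, Nars, Sars, Tars and Yars. Both comparisons use the same 3 WT libraries. Higher values without overlap with WT were found for 11 cytosolic genes and the mitochondrial Wars2 in the Xbp1 KO (13.7% of all genes). In the Xbp1-Ire1 KO they were found for 17 cytosolic, 3 mitochondrial and 3 scaffold genes (12.9%). Qars, Hars and Aimp2 were lower without overlap in the Xbp1 KO, and none of them was called. No share of all genes is given for that direction, so nothing is read from it. Dars was called in the Xbp1-Ire1 KO and not in the Xbp1 KO. The 8 cytosolic genes called in neither by edgeR were Kars, Qars, Rars, Farsa, Farsb, Hars, Vars and Wars. DESeq2 called Kars (adjusted p = 0.0335) and Farsb (adjusted p = 0.0330) higher in the Xbp1-Ire1 KO, and without cDC1 WT replicate 3 edgeR called Qars lower in the Xbp1 KO (log2 -0.40, adjusted p = 0.0421) and Kars higher in the Xbp1-Ire1 KO (0.44, adjusted p = 0.0382).

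Cars, which charges cysteine tRNA (GRCm38 chromosome 7, 143557230 to 143600090), had the smallest adjusted p of the cytosolic genes in the Xbp1 KO and shared it with Sars in the Xbp1-Ire1 KO. Its level was 37.5, 45.1 and 52.6 CPM in the WT cDC1 libraries, 125, 128 and 130.5 in the Xbp1 KO and 169, 177 and 163 in the Xbp1-Ire1 KO. The groups did not overlap, and each knockout library was above every WT library. The log2 fold change was 1.504 ± 0.14 (SE, adjusted p = 1.02e-05) in the Xbp1 KO and 1.91 ± 0.14 (SE, adjusted p = 2.58e-06) in the Xbp1-Ire1 KO.

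Sars, the serine enzyme (chromosome 3, 108424865 to 108445209), lay at 98.4, 113 and 103 CPM in WT, 201, 204 and 245 in the Xbp1 KO and 372, 344 and 337 in the Xbp1-Ire1 KO. The 3 genotypes formed separate ranges. Its log2 fold change against WT was 1.05 ± 0.12 (SE, adjusted p = 0.000109) in the Xbp1 KO and 1.74 ± 0.12 (SE, adjusted p = 2.58e-06) in the Xbp1-Ire1 KO. Yars, the tyrosine enzyme, lay at 69.0, 79.8 and 62.1 CPM in WT, 143, 141 and 175 in the Xbp1 KO and 237, 242 and 216 in the Xbp1-Ire1 KO, again without overlap. Its log2 fold changes were 1.12 ± 0.14 (SE, adjusted p = 0.00015) and 1.72 ± 0.14 (SE, adjusted p = 7.09e-06).

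Gars, the glycine enzyme, lay at 154, 188 and 154 CPM in WT, 269, 265 and 269 in the Xbp1 KO and 500.3, 439.6 and 407 in the Xbp1-Ire1 KO. Its rise was 0.69 ± 0.12 (SE, adjusted p = 0.0034) without Xbp1 and 1.44 ± 0.13 (SE, adjusted p = 1.46e-05) without both genes. Because a single gene makes the cytosolic and the mitochondrial form of this enzyme, these reads belong to both compartments. Without Gars and Kars, 10 and 11 of 18 cytosolic genes were called in the 2 comparisons. Aars, which charges alanine tRNA, lay at 176, 201 and 162 CPM in WT, 281, 299 and 295 in the Xbp1 KO and 412, 491 and 417 in the Xbp1-Ire1 KO, with log2 fold changes of 0.70 ± 0.12 (SE, adjusted p = 0.00299) and 1.29 ± 0.12 (SE, adjusted p = 3.78e-05). Its exons overlap those of Exosc6 on the same strand by 1326 bases, and how the counting assigned shared reads is not stated in the labels.

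Tars, the threonine enzyme, lay at 85.2, 93.2 and 90.2 CPM in WT, 153, 127 and 158 in the Xbp1 KO and 195, 194 and 190.0 in the Xbp1-Ire1 KO, and the 3 ranges were separate. The log2 fold changes were 0.71 ± 0.12 (SE, adjusted p = 0.00221) and 1.11 ± 0.12 (SE, adjusted p = 8.64e-05). Nars, the asparagine enzyme, had log2 fold changes of 0.62 ± 0.11 (SE, adjusted p = 0.00325) and 1.00 ± 0.11 (SE, adjusted p = 0.000111).

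**Figure D2:**
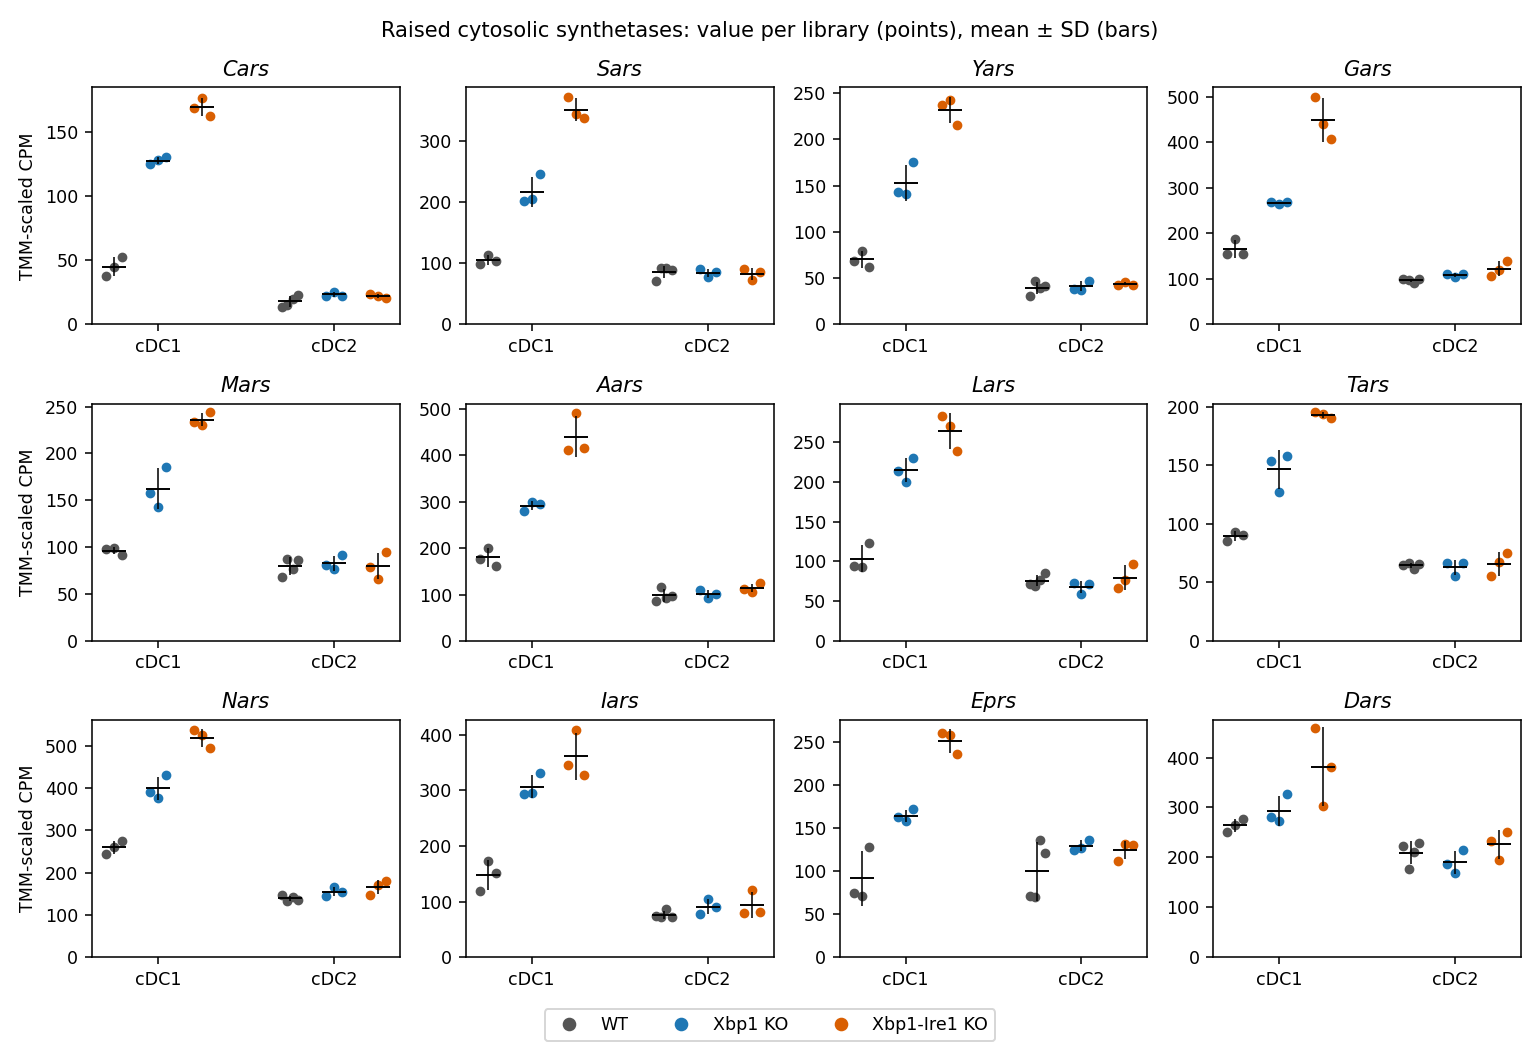
TMM-scaled CPM (y axis, starting at 0) of the 12 cytosolic genes called higher in the cDC1 Xbp1-Ire1 KO, for each library (points) with the mean and SD of each group (bars), by cell type and genotype (x axis). In cDC1 the points step up from WT to Xbp1 KO to Xbp1-Ire1 KO for Cars, from at most 52.6 to at least 163 CPM, whereas its cDC2 points lie between 13.7 and 25.7.

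Among the 8 enzymes of the multisynthetase complex, 4 were called in the Xbp1 KO (Eprs, Iars, Lars and Mars) and 5 in the Xbp1-Ire1 KO (also Dars), while Kars, Qars and Rars of the same complex were not. Lars, the leucine enzyme, lay at 94.0, 92.9 and 123 CPM in WT, 214, 199.8 and 230.0 in the Xbp1 KO and 283, 271 and 238 in the Xbp1-Ire1 KO. Every knockout library was above every WT library, with log2 fold changes of 1.06 ± 0.14 (SE, adjusted p = 0.000281) and 1.35 ± 0.14 (SE, adjusted p = 5.29e-05). Mars, the methionine enzyme that also charges the initiator tRNA, lay at 97.8, 99.4 and 92.0 CPM in WT, 158, 143 and 186 in the Xbp1 KO and 234, 230.5 and 244 in the Xbp1-Ire1 KO. Its log2 fold changes were 0.75 ± 0.12 (SE, adjusted p = 0.00184) and 1.29 ± 0.12 (SE, adjusted p = 3.78e-05). Its exons overlap those of Ddit3 by 68 bases on the opposite strand, and Ddit3 itself was higher in both comparisons.

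Iars, the isoleucine enzyme, had log2 fold changes of 1.05 ± 0.15 (SE, adjusted p = 0.000497) and 1.28 ± 0.15 (SE, adjusted p = 0.000151). A processed pseudogene, Gm4849, matches its transcript at 96.0% identity over 1656 bases, so its count is uncertain to that extent. Qars, which charges glutamine tRNA, was lower than WT in every Xbp1 KO library, at 51.9, 53.7 and 55.1 against 70.1, 72.7 and 59.3 CPM, but the difference did not pass the test (log2 -0.33 ± 0.14 SE, adjusted p = 0.135). Rars, the arginine enzyme, had values of -0.04 and 0.11. Kars, the lysine enzyme, had 0.14 and 0.40 (adjusted p = 0.0764 for the latter).

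Outside the complex, the genes not called had log2 fold changes between -0.19 (Hars) and 0.23 (Farsb) in the Xbp1 KO, and between -0.041 (Hars) and 0.45 (Farsb) in the Xbp1-Ire1 KO. Farsa and Farsb encode the subunits of the phenylalanine enzyme, Hars, Vars and Wars those for histidine, valine and tryptophan. Wars is also known as an interferon-induced gene, and lay at 79.6, 82.9 and 77.3 CPM in WT and 87.3, 104 and 86.3 in the Xbp1-Ire1 KO, where the groups did not overlap but the test was not passed (log2 0.21 ± 0.12 SE, adjusted p = 0.346).

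Eprs, the fused glutamate and proline enzyme (chromosome 1, 185363044 to 185428360), and Dars, the aspartate enzyme, had calls that rested on single libraries. Eprs lay at 74.7, 71.6 and 129 CPM in WT, 162, 158 and 172 in the Xbp1 KO and 260.0, 258 and 235 in the Xbp1-Ire1 KO, and the highest WT value was the library named only WT. Its log2 fold change in the Xbp1 KO was 0.84 ± 0.19 (SE, adjusted p = 0.0129), which became 0.72 (adjusted p = 0.0711) without cDC1 WT replicate 1 and 0.70 (adjusted p = 0.0552) without replicate 2. Against the 1 library named WT alone it was 0.37, a value of a single control library. The rise in the Xbp1-Ire1 KO was 1.46 ± 0.19 (SE, adjusted p = 0.000385) and passed with any 1 library left out. Dars lay at 251, 265 and 277 CPM in WT and 460.2, 302 and 382 in the Xbp1-Ire1 KO (log2 0.53 ± 0.15 SE, adjusted p = 0.0447), and the call was kept in 2 of 6 fits that left out 1 library, with an adjusted p of up to 0.199.

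Of the 16 mitochondrial synthetases, Wars2, the tryptophan enzyme, was the 1 called. It lay at 5.56, 8.47 and 5.58 CPM in WT, 10.2, 9.11 and 11.7 in the Xbp1 KO and 14.96, 9.84 and 13.3 in the Xbp1-Ire1 KO, and its log2 fold change in the latter was 0.95 ± 0.27 (SE, adjusted p = 0.0439). The call was kept in 2 of 6 fits without 1 library. The other 15 had log2 fold changes from -0.46 (Lars2) to 0.53 (Rars2, adjusted p = 0.0597) in the Xbp1-Ire1 KO. In the Xbp1 KO the 16 ranged from -0.89 (Pars2) to 0.66 (Wars2). Most of their standard errors were wider than those of the cytosolic genes, for instance 0.37 for Pars2 and 0.33 for Vars2 against 0.11 for Nars, so a change of the size seen in Nars could pass undetected in them.

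For 17 pairings of a cytosolic gene with the mitochondrial gene for the same amino acid, the cytosolic log2 fold change was the larger in 14 in each cDC1 knockout against WT. In cDC2, where 0 genes were called, it was the larger in 14 in the Xbp1 KO and 15 in the Xbp1-Ire1 KO, so this count does not set cDC1 apart. The median difference within a pairing was 0.86 and 1.04 in cDC1 and 0.22 and 0.27 in cDC2. Some genes enter more than 1 pairing. Sars and Sars2 had 1.74 and -0.12 in the cDC1 Xbp1-Ire1 KO, and Cars and Cars2 1.91 and 0.25. The pairings in the other direction were Wars with Wars2 (0.21 and 0.95), Rars with Rars2 (0.11 and 0.53) and Hars with Hars2 (-0.041 and 0.054). The exons of Hars and Hars2 overlap by 195 bases on opposite strands.

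The cytosolic synthetases together took 0.219 to 0.248% of all counts in WT cDC1, 0.354 to 0.380% in the Xbp1 KO and 0.460 to 0.526% in the Xbp1-Ire1 KO. These 3 ranges were separate. In cDC2 the share lay between 0.173 and 0.208% in all 10 libraries. The mean log2 CPM of the 20 genes lay at 6.66 to 6.75 in WT cDC1, 7.12 to 7.30 in the Xbp1 KO and 7.53 to 7.62 in the Xbp1-Ire1 KO. The mean over the 16 mitochondrial genes lay at 4.34 to 4.74, 4.42 to 4.67 and 4.77 to 4.83.

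**Figure D3:**
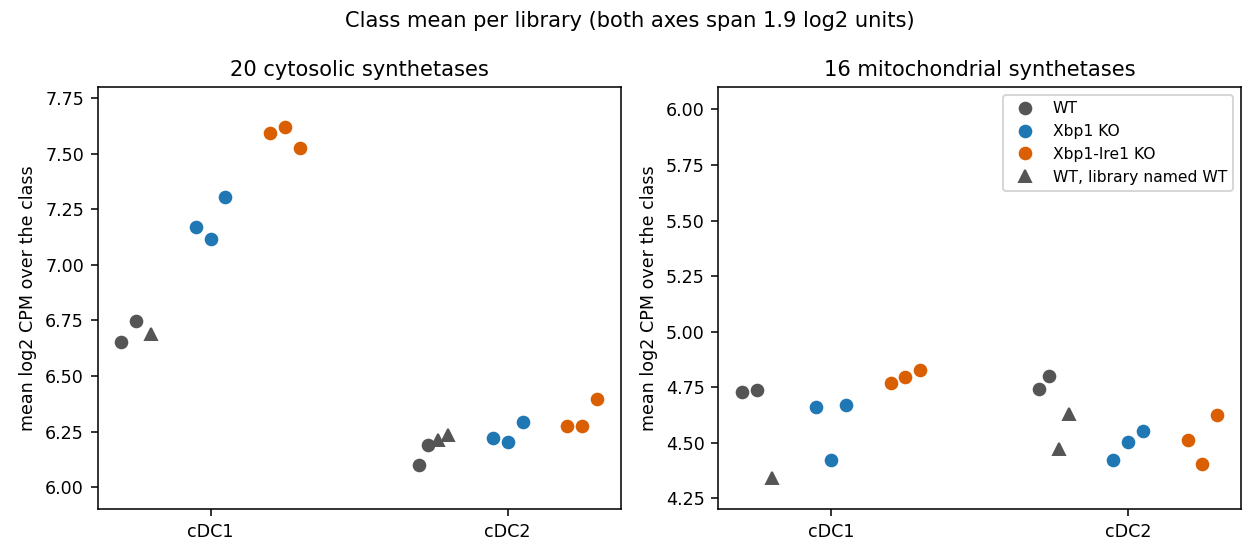
Mean log2 CPM (y axis) over the 20 cytosolic (left) and 16 mitochondrial (right) synthetases in each library (points, with triangles for the libraries named only WT), by cell type and genotype (x axis). Cytosolic means in cDC1 lie at 6.66 to 6.75 in WT and 7.53 to 7.62 in the Xbp1-Ire1 KO, and the lowest mitochondrial value, 4.34, is the cDC1 library named only WT.

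When the Xbp1-Ire1 KO was set against the Xbp1 KO in cDC1, all 20 cytosolic genes had positive log2 fold changes and 8 were called higher: Aars, Eprs, Gars, Mars, Nars, Sars, Tars and Yars. Among all genes 7.13% were called higher, 5.52% lower and 12.7% in either direction. Without overlap, 14 cytosolic genes were higher (18.4% of all genes). Gars had the smallest adjusted p (log2 0.75 ± 0.12 SE, adjusted p = 0.00192), followed by Sars (0.69 ± 0.12 SE, adjusted p = 0.00262) and Aars (0.59 ± 0.12 SE, adjusted p = 0.00733). Cars (0.41 ± 0.13 SE, adjusted p = 0.0576) and Iars (0.24 ± 0.14 SE, adjusted p = 0.31) did not pass. The median was 0.35 for cytosolic genes, 0.25 for mitochondrial ones, of which 0 were called, and 0.016 for all genes. The scaffolds Aimp1 (0.65 ± 0.20 SE, adjusted p = 0.0499) and Aimp2 (0.53 ± 0.15 SE, adjusted p = 0.0304) were called, and Eef1e1 was not (0.54 ± 0.18 SE, adjusted p = 0.0696).

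The count of 8 rested on each library: it was 2, 3 and 5 without Xbp1 KO replicates 1, 2 and 3, and 5, 6 and 4 without Xbp1-Ire1 KO replicates 1, 2 and 3. Gars and Sars were called in all 6 of these fits, Aars in 5, Yars in 4 and Mars in 3. Eprs, Nars, Tars and the scaffold Aimp2 were called in 0 of the 6, with adjusted p of up to 0.168, 0.183, 0.218 and 0.141, and Aimp1 in 1 (up to 0.212).

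In cDC2, 0 of 39 genes were called by edgeR in any of the 3 comparisons, and likewise 0 by DESeq2 and by limma on the deposited log2 values. Few genes of any kind were called there: 0.103% in the Xbp1 KO against WT, 0.0258% in the Xbp1-Ire1 KO against WT and 0.0343% between the knockouts. At an unadjusted p under 0.05 there were 3 genes in the first comparison (Farsb, Hars2 and Pars2, all lower), 3 in the next (Gars and Nars higher, Mars2 lower) and 1 in the last (Farsb, higher). Such counts can arise by chance, and the share of all genes at that threshold was not computed. The cytosolic medians were 0.050, 0.13 and 0.081, and the mitochondrial ones -0.11, -0.063 and 0.023. Cars lay at 13.7, 15.4, 19.8 and 22.9 CPM in WT cDC2, 22.5, 25.7 and 22.2 in the Xbp1 KO and 23.6, 22.3 and 20.4 in the Xbp1-Ire1 KO. Each knockout overlapped WT, unlike in cDC1.

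Sars lay at 70.6, 92.1, 92.4 and 88.2 CPM in WT cDC2, 91.0, 78.2 and 84.9 in the Xbp1 KO and 91.3, 72.4 and 85.8 in the Xbp1-Ire1 KO, with full overlap. Yars lay at 30.8, 46.7, 38.9 and 41.5 in WT, 38.3, 37.8 and 47.5 in the Xbp1 KO and 43.0, 46.2 and 42.8 in the Xbp1-Ire1 KO. Neither gene separated any genotype of cDC2.

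A test of the difference between the cell types (interaction) found 10 cytosolic genes whose rise in the Xbp1-Ire1 KO was larger in cDC1 than in cDC2, against 0.755% of all 12185 genes called in that direction and 2.23% in either. The extra log2 fold change was 1.76 ± 0.18 (SE) for Sars, 1.59 ± 0.23 for Cars and 1.54 ± 0.20 for Yars, with edgeR adjusted p of 1.16e-05, 0.000307 and 0.000142. It was also called for Mars, Lars, Gars, Tars, Aars, Iars and Nars, between 0.72 and 1.27. The call for Iars was kept in 8 of 13 fits without 1 library (adjusted p up to 0.0920), and the other 9 in all 13. Eprs had 1.11 ± 0.31 (SE, adjusted p = 0.0702) and was not called, but DESeq2 called it (adjusted p = 0.0190), as did edgeR without a filter (0.0350) and in 3 fits without 1 WT library. Dars had 0.39 ± 0.20 (SE, adjusted p = 0.457). For the Xbp1 KO the difference was called for 5 cytosolic genes, Lars (1.20), Cars (1.11), Sars (1.06), Yars (1.06) and Tars (0.74), against 0.328% of all genes in that direction and 2.17% in either. The Tars call was kept in 9 of 13 fits without 1 library (adjusted p up to 0.0678). For the Xbp1-Ire1 KO against the Xbp1 KO it was called for Sars alone (0.70 ± 0.18 SE, adjusted p = 0.0478), with 1.82% of all genes in that direction and 2.14% in either, and that call was kept in 3 of 12 fits without 1 library. No mitochondrial or scaffold gene was called in these 3 tests. At an unadjusted p under 0.05 there were 15 of the 39 genes for the Xbp1-Ire1 KO, 12 for the Xbp1 KO and 5 between the knockouts. The share of all genes at that threshold was not computed, so nothing is read from these counts.

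The cell types already differed in WT. Of the 20 cytosolic genes 15 were higher in cDC1 than in cDC2 and 0 lower, as were the scaffolds Aimp2 and Eef1e1 and the mitochondrial gene Fars2, while of all 12185 genes 2443 were called higher and 2528 lower, 40.8% in either direction. Nars lay at 243, 261 and 274 CPM in cDC1 and 146, 132, 142 and 135 in cDC2 (log2 1.00 ± 0.098 SE, adjusted p = 6.27e-08). Cars had the largest value of the 39 genes (1.42 ± 0.15 SE, adjusted p = 2.31e-07). Kars, Vars, Wars, Farsb and Eprs were not called, with values from -0.029 (Eprs) to 0.31 (Farsb, adjusted p = 0.0544). Qars, Rars, Farsa and Hars were higher in WT cDC1 than cDC2 (log2 0.88, 0.67, 0.80 and 0.48) but not called in either cDC1 knockout against WT. Fars2 was at the edge (0.42 ± 0.17 SE, adjusted p = 0.0497) and was called in 1 of 7 fits without 1 library. With the replicate number as a block its adjusted p was 0.0884.

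Levels per kilobase of merged exons (GENCODE M21) put the cytosolic genes above most mitochondrial ones in WT cDC1. Dars (60.6 ± 2.91 CPM per kb, SD, n = 3), Vars (59.7 ± 12.3), Nars (59.5 ± 3.55) and Gars (53.1 ± 6.27) were the highest cytosolic genes and their ranges over the 3 libraries overlapped. The lowest were the mitochondrial Wars2 (1.10 ± 0.281) and Mars2 (1.15 ± 0.399). The lowest count of any of the 39 genes in a library was 26, for Mars2 in cDC2 Xbp1-Ire1 KO replicate 2, and the lowest of a cytosolic gene was 161, for Cars in cDC2 WT replicate 1.

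Lars2, the mitochondrial leucine enzyme (chromosome 9, 123366927 to 123462666), had counts far above those of every other synthetase. Whether all reads counted for it come from its mRNA was not tested, so the values below are those of the counted reads. It had 743 ± 434 CPM per kb in WT cDC1 (SD, n = 3) and 91.5 to 97.6% of all mitochondrial synthetase counts in each library. Its level was 12356, 9414 and 2953 CPM in WT cDC1, 6396, 6101 and 8824 in the Xbp1 KO and 6072, 5513 and 6431 in the Xbp1-Ire1 KO. In cDC2 it was 7855, 8191, 4909 and 3717 in WT, 4618, 5078 and 4798 in the Xbp1 KO and 5452, 4995 and 3873 in the Xbp1-Ire1 KO. In both cell types the WT libraries with floxed names lay above those named only WT, and the knockouts of cDC1 lay between them. Against the floxed-named libraries Lars2 was called lower in the cDC1 Xbp1-Ire1 KO (log2 -0.86, adjusted p = 0.00189). Against the 1 cDC1 library named WT the value was 1.03, with the spread taken from the other groups, so no direction is given for it. The part of the library name in this was not tested.

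**Figure D4:**
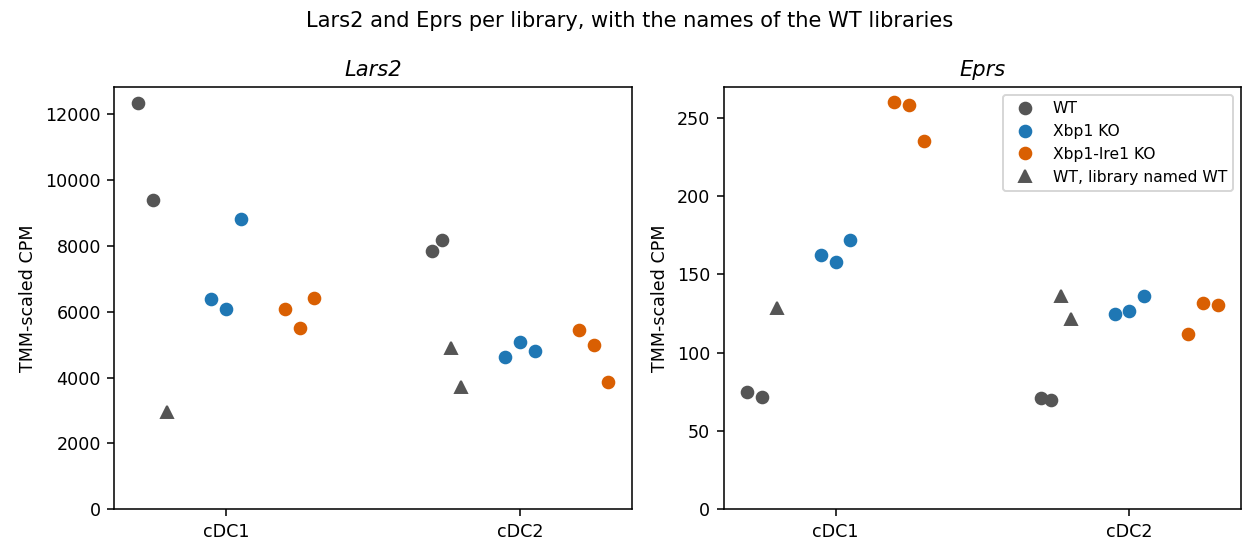
TMM-scaled CPM (y axis, starting at 0) of Lars2 (left) and Eprs (right) in each library (points), by cell type and genotype (x axis), with the libraries named only WT as triangles. In cDC1, Lars2 is 2953 CPM in the triangle and at least 9414 in the other WT libraries, and Eprs is 129 against at most 74.7.

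Eprs showed the opposite order in cDC2 WT, with 71.3, 69.7, 136 and 121 CPM in replicates 1 to 4, so that the floxed-named libraries were the lower ones. The cDC2 Xbp1 KO lay at 125, 127 and 136 and the Xbp1-Ire1 KO at 112, 132 and 130.3. Against the floxed-named libraries alone Eprs was called higher in cDC2 in both knockouts (log2 0.88 with adjusted p = 0.00232, and 0.82 with adjusted p = 0.00518), which it was not against all 4 WT libraries (0.38 and 0.32). Eprs and Lars2 were singled out here after their values were seen.

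The genes around the synthetases were read from further lists, beside 4.28% of all genes called higher and 6.91% lower in the cDC1 Xbp1 KO, and 3.04% and 4.71% in the Xbp1-Ire1 KO. Of 12 genes for tRNA maturation, export and editing, Xpot, the exporter that carries tRNAs out of the nucleus, was the 1 called against WT in cDC1. It was 0.73 ± 0.16 (SE, adjusted p = 0.0106) in the Xbp1 KO and 1.63 ± 0.16 (SE, adjusted p = 4.22e-05) in the Xbp1-Ire1 KO, from 60.5 ± 13.4 CPM in WT (SD, n = 3) to 187 ± 25.0 in the Xbp1-Ire1 KO. In cDC2 its values were -0.055 and -0.017, and the difference between cell types was called in both, at 0.78 ± 0.20 (SE, adjusted p = 0.0418) and 1.62 ± 0.20 (SE, adjusted p = 9.3e-05).

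Of 16 tested genes of uncharged tRNA sensing and the ATF4 arm, 5 were higher in the cDC1 Xbp1 KO and 6 in the Xbp1-Ire1 KO, with 0 lower, and in cDC2 0 of 14 were called. Ddit3, a transcription factor of the stress response, was 2.06 ± 0.33 and 3.99 ± 0.34 on the log2 scale in the 2 cDC1 comparisons. Atf4 was 1.40 ± 0.27 in the Xbp1 KO, and its value in the Xbp1-Ire1 KO is not given here. These genes are examples from the list. Its 16 genes ranged from -0.38 to 3.02 in the Xbp1 KO (median 0.44), so another gene rose more than Ddit3 there. Of 7 cytosolic elongation factors, 1 was lower in the Xbp1 KO and 2 were higher in the Xbp1-Ire1 KO, with none called the other way. Eef1g, a subunit of elongation factor 1, was lower in the Xbp1 KO (-1.35 ± 0.13 SE, adjusted p = 1.66e-05) and higher in the Xbp1-Ire1 KO (0.50 ± 0.12 SE, adjusted p = 0.0269). Of 11 mitochondrial translation factors 1 was lower in the Xbp1 KO, Tufm (-0.56 ± 0.16 SE, adjusted p = 0.0372), and 0 were called in the Xbp1-Ire1 KO. Of 4 genes of mitochondrial tRNA amidation and formylation 0 and 1 were called, the latter being Gatb (0.78 ± 0.19 SE, adjusted p = 0.0247).

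Markers of other cells moved with genotype in places. Without cDC1 Xbp1 KO replicate 3, the library with acinar transcripts, 11 cytosolic genes were called in the Xbp1 KO against WT. Of 27 calls of synthetase and scaffold genes in comparisons that use this library, 22 were kept without it, 5 were lost and 0 reversed. The summed CPM of 5 neutrophil genes was 2.21 to 8.23 in WT cDC1, 4.66 to 8.65 in the Xbp1 KO and 13.9 to 34.8 in the Xbp1-Ire1 KO. That of 6 erythroid genes was 0.947 to 5.57 in WT and 6.03 to 19.2 in the Xbp1-Ire1 KO. Genes of red pulp macrophages (8) summed to 239 to 372 CPM in WT cDC1, 177 to 922 in the Xbp1 KO and 196 to 749 in the Xbp1-Ire1 KO. Those of monocytes (6) summed to 30.2 to 35.4, 32.5 to 98.1 and 35.6 to 128 CPM. The Xbp1 KO sum of 98.1 was replicate 3, where the mean log2 of CPM plus 1 over the 6 genes was 1.71. That mean was 1.77 to 1.93 in WT, and the Xbp1 KO range overlapped it. In the Xbp1-Ire1 KO it was 1.97 to 2.41. The Xbp1 KO sums therefore do not show a rise of the monocyte list as a whole. Of 20 cell cycle genes 5 were lower in the Xbp1 KO (median -0.82), with 0 higher, and of 16 immediate early genes 6 were higher there (median 0.58). Of 6 cDC1 marker genes 1 was called higher in the Xbp1 KO against WT, with 0 lower. Their summed CPM was 4197 to 5062 in WT cDC1, 5615 to 6468 in the Xbp1 KO and 4011 to 5191 in the Xbp1-Ire1 KO. In the Xbp1-Ire1 KO against WT, 3 immediate early genes and 1 of these 6 marker genes were lower. Between the knockouts 8 cytosolic synthetases were called higher, and among all genes 7.13% were called higher and 5.52% lower. There, 11 of 16 immediate early genes were lower (median -0.97), as were 5 of the 6 cDC1 marker genes (median -0.52). All 16 immediate early genes were lower without overlap, but no share of all genes is given for that count, so nothing is read from it. Of 20 cell cycle genes 5 were higher (median 0.69). Their part in the synthetase results was not tested.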

How the data were processed

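The labels name no counting tool or strand setting. Per the submitters' processing notes, the tools were FastQC 0.11.4, Trimmomatic 0.35, TopHat2 2.1.0, SAMtools 0.1.19 and limma 3.42.2, with build mm10. The authors deposited raw counts per gene for each cell type, and log2 values that equal log2 CPM (with 0.5 added to each count) plus 1 constant per library.

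Counts were fitted with edgeR 4.0.16 in R 4.3.3: TMM scaling, filterByExpr (minimum count 10, total 15), glmQLFit and glmQLFTest with the 3 genotypes of a cell type together, or all 19 libraries for comparisons between cell types. This left 11353, 11646 and 12185 genes in cDC1, cDC2 and both. Each standard error is the size of the log2 fold change over the root of its F statistic. Mean log2 CPM used a prior count of 2. The fits were tested on simulated data.

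Groups follow the sample titles. The 3 WT pairs of cDC1 and cDC2 with the same number in the sample title had deviations correlated at 0.132, 0.258 and 0.202. Both libraries of each pair share a kind of library name. The numbers in the library names match in pairs 1 and 2 but not in pair 3. Replicate 3 of the Xbp1 KO correlated at 0.235 between the cell types. The main tests used no pairing, also between WT cDC1 and WT cDC2, and the replicate number entered only as a block in an alternative fit. The 39 genes and all lists were chosen with earlier results of these data known. The naming rule was that every synthetase is accounted for, that up to 12 called per comparison have full statistics and up to 8 a value per library, by smallest adjusted p, and that up to 4 called genes are named per other list. Alternatives were DESeq2 1.42.0 and its size factors, limma 3.58.1 on the deposited log2 values, other filters, a replicate block, only the 2 groups compared, WT libraries by name and each library left out. Exon overlaps came from GENCODE M21 and similar transcripts from BLAST 2.17.0 (at least 95% identity).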

Additional observations from a re-analysis of the deposited data

Results flagged for a closer look

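In WT cDC2, 4 of the 39 genes had 1 library far from the other 3, where chance gives about 1 in 20. Iars was at 87.3 CPM and Gars at 91.99 CPM in replicate 3. Vars was at 405.6 CPM and Aars2 at 22.52 CPM in replicate 2.

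The following genes changed by a different amount in cDC1 than in cDC2, by the interaction term of the edgeR quasi-likelihood fit, with Benjamini-Hochberg adjusted p. In the Xbp1 KO against WT the extra log2 fold change in cDC1 was 1.20 for Lars (adjusted p = 0.00117), 1.11 for Cars (0.00674), 1.06 for Sars (0.00115), 1.06 for Yars (0.00406) and 0.743 for Tars (0.0191). In the Xbp1-Ire1 KO against WT it was 1.76 for Sars (adjusted p = 1.16e-05), 1.59 for Cars (0.000307), 1.54 for Yars (0.000142), 1.27 for Mars (0.00056) and 1.26 for Lars (0.00104). It was 1.08 for Gars (0.000433), 1.06 for Tars (0.000996), 1.05 for Aars (0.00147), 0.953 for Iars (0.0296) and 0.721 for Nars (0.00745). Between the knockouts it was 0.704 for Sars (adjusted p = 0.0478).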

How the results depend on the processing

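Over all comparisons there were 68 calls of single genes and 993 refits of them under alternatives, of which 0 reversed and 97 lost the call. Only genes called in the main fit enter this count, so Lars2, with values of opposite sign below, does not. For cDC1 against WT, leaving out WT replicate 3 and using only floxed-named WT libraries are the same fit, counted under both settings. With 1 library left out, the cDC1 Xbp1 KO against WT had 10 to 12 cytosolic, 0 to 2 mitochondrial and 10 to 14 of all 39 genes called, and the Xbp1-Ire1 KO had 11 to 13, 0 to 2 and 11 to 16. Between the cDC1 knockouts the ranges were 2 to 6 cytosolic and 2 to 7 of all genes, in cDC2 0 to 0, and between WT cDC1 and cDC2 13 to 16 cytosolic, 0 to 1 mitochondrial and 16 to 19. The interactions ranged over 4 to 7, 9 to 11 and 0 to 1.

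The number of mitochondrial calls moved with the WT libraries used. In the cDC1 Xbp1 KO it was 2 against the floxed-named libraries (Lars2 at -0.60 and Pars2 at -1.21, both lower) and 1 against the single WT-named library (Lars2 at 1.28, higher). cDC1 has 1 WT-named library, which is assumed to vary like the other groups. In the Xbp1-Ire1 KO it was 2 against floxed-named libraries, 2 by DESeq2 and 0 with only the 2 groups fitted. Against floxed-named libraries each cDC2 knockout had 1 cytosolic and 1 mitochondrial call, 2 in all. Between the WT cell types the mitochondrial call was 0 with DESeq2, its size factors, no filter or the replicate block. The interaction in the Xbp1 KO gave 10 calls by DESeq2, and that between the knockouts 0 without a filter or with the replicate block and 2 by DESeq2. The cause was not tested.

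With 1 library left out, the cytosolic minus mitochondrial median log2 fold change ranged over 0.58 to 0.78 (cDC1 Xbp1 KO), 0.45 to 0.67 (WT cDC1 against cDC2) and, for the interactions, 0.17 to 0.44, 0.43 to 0.77 and 0.060 to 0.27. Against the single WT-named cDC1 library it was 0.33 and 0.48 in the cDC1 knockouts, and against the 2 WT-named cDC2 libraries 0.055 in the cDC2 Xbp1-Ire1 KO. Without Lars2, an alternative chosen after seeing the data, the mean cytosolic minus mitochondrial log2 CPM was 2.64, 3.16 and 3.30 in cDC1 WT, Xbp1 KO and Xbp1-Ire1 KO, and 2.05, 2.26 and 2.31 in cDC2. Same-numbered samples within cDC1 correlated at -0.152 to 0.234 and within cDC2 at -0.119 to 0.228, with 3 of 9 pairs over 0.1 in each, so their numbers were not taken as a pairing. With the replicate block 61 of 68 calls were kept. The labels do not state that libraries of the same title number share a mouse, so that fit does not test a pairing by mouse. The lowest count behind a value was 26, for Mars2.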
